A study of Mus musculus with 2 samples.

Results

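The genes described here are 9 members of the EGF family signalling system in the newborn mouse lung, 4 ERBB receptors (Egfr, Erbb2, Erbb3 and Erbb4) and 5 ligands (Areg, Ereg, Hbegf, Nrg1 and Tgfa). They were taken by name from the 27254 genes counted in either library, and all 9 were counted in both. Whole lungs of wild type C57BL/6J female mice at postnatal day 1 were dissociated and captured by Drop-seq, in which a bead tags every transcript with a cell barcode and a unique molecular identifier (UMI). There were 2 batches with 1 mouse each, both untreated, and no condition was compared, so cell types were compared within mice and n was 2 throughout.

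ERBB receptors are tyrosine kinases at the cell surface that work in pairs. EGFR binds amphiregulin (Areg), epiregulin (Ereg), HB-EGF (Hbegf) and TGF-alpha (Tgfa). Neuregulins (Nrg1) bind ERBB3 and ERBB4, and ERBB4 binds HB-EGF and epiregulin as well. ERBB2 has no known ligand of its own and serves as a partner, and ERBB3, with little kinase activity, relies on its partner to signal. The ligands are made as membrane proteins that metalloproteases release, and in the lung the pathway is known for its part in the growth and repair of epithelium.

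The members that led in neighbouring alveolar cell types, the ligand gene Areg and the receptor gene Egfr, are shown with the 150 bases before their annotated starts. These are RefSeq sequences of GRCm38.p6, in lower case with matches to searched motifs in capitals. The region of Areg was chr5:91139449-91139598 (+) and that of Egfr was chr11:16752053-16752202 (+).
Areg: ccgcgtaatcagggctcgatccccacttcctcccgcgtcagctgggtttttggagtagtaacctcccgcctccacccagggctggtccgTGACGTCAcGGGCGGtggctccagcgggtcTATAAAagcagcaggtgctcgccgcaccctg
Egfr: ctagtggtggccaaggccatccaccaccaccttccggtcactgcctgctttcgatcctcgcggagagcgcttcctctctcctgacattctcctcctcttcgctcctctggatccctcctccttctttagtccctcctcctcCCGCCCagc
The letters searched on both strands were TGACGTCA (the cyclic AMP response element), TGANTCA (AP-1), TATAAA and GGGCGG (a GC box, CCGCCC on the other strand), and none of the matches printed overlap. In Areg the response element lay 61 bases before the start, the GC box 52 and TATAAA 31. In Egfr a single GC box lay 9 bases before the start, on the other strand. Of 32851 promoter windows of the same length, 1.36% held TGACGTCA, 7.57% TATAAA, 28.6% a GC box and 4.24% TGANTCA. The table held promoters of 5 of the 9 members (Egfr, Erbb2, Erbb4, Areg and Tgfa).

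The whole gene Areg (chr5:91139599-91148432, + strand of GRCm38) lies next to Ereg (chr5:91074622-91093646, +) with 46.0 kb between them. Despite this position they differed in how often they were seen, with 26 Areg and 1 Ereg UMIs in Batch 1 and 959 and 15 in Batch 2. The receptor genes are apart from each other, Egfr at chr11:16752203-16918158 (+), Erbb2 at chr11:98412470-98437716 (+), Erbb3 at chr10:128567523-128589652 (-) and Erbb4 at chr1:68032186-69108059 (-).

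The libraries differed in size. With at most 10% mitochondrial UMIs per cell, 2388 cells with 4432553 UMIs were kept in Batch 1 and 5615 cells with 18232639 UMIs in Batch 2, at medians of 1386.5 and 2014 UMIs per cell. The tables shared no cell barcode. Cells over that limit numbered 1 of 2389 in the Batch 1 table and 1940 of 7555 in that of Batch 2. Whether such cells were removed from Batch 1 before deposit is not given in the sources used here, so these numbers do not compare the mice. Cells were clustered without the 9 members and without the pathway list used below. Clusters were named from marker genes as AT1-like, AT2-like and so on (written AT1 and AT2 below), which gave 24 named types with 7640 of the 8003 cells. AT1 and AT2 are the alveolar epithelial cells that line the gas exchange surface and make surfactant, and AT1/AT2 cells carried markers of both. In Batch 2 the AT1/AT2 cells were also deeper, at a median of 5262 UMIs against 1913 in AT1 and 3697 in AT2 cells. An AT1 and an AT2 cell under a shared barcode would carry both sets of markers too. Whether AT1/AT2 cells include such doublets was not tested beyond leaving out called doublets. The 7 AT2 markers summed to 1357 UMIs per 10000 in AT2 cells of Batch 1 and 868 in Batch 2, to 742 and 570 in AT1/AT2 cells, and to 48.8 and 27.8 in AT1 cells. The 7 AT1 markers summed to 128 and 139 in AT1 cells, 79.9 and 56.8 in AT1/AT2 cells, and 12.1 and 14.4 in AT2 cells. Each alveolar type joins clusters that were mostly of 1 batch. In Batch 1, 42 of 47 AT1/AT2 cells lay in a cluster led by Retnla, Rbpjl and Cxcl15 with 1 cell of Batch 2, 89 of 102 AT1 cells in a cluster led by Ager, and 161 of 193 AT2 cells in a cluster led by Sftpc. In Batch 2, most AT1/AT2 cells lay in clusters led by Myh14 (185 cells) and Sftpd (166), and another 27 in a cluster led by Gm26870, Gm21738 and Gm10717. Pericytes of both batches formed 1 cluster.

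All levels are UMIs of a gene per 10000 UMIs of the group, with an exact 95% Poisson interval that covers counting error only. UMIs count transcript ends and are not scaled to length, so a level is compared between cell types and not between genes. Detection is the percentage of cells in which the gene had a UMI.

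Most UMIs of Egfr, Erbb3 and Areg came from epithelial cells, which numbered 355 in Batch 1 and 1484 in Batch 2. Erbb3 and Areg were nearly absent elsewhere, Egfr and Erbb2 were also seen in other compartments, and Hbegf was shared by epithelial, mesenchymal and endothelial cells. Each compartment was compared with the mean log2 level of the other 3 by edgeR over 12077 genes, of which 5 were members (Egfr, Erbb2, Erbb3, Areg and Hbegf). All adjusted p-values here are Benjamini-Hochberg values of edgeR's quasi-likelihood test over all genes tested. The spread that this test uses is pooled over sums of the same 2 mice. The SE given with an edgeR difference is the absolute difference divided by the square root of the test's F statistic.

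Erbb3 was counted at 46 UMIs in epithelial cells of Batch 1, of 51 in all cells, and at 826 of 849 in Batch 2. Its level was 0.453 (0.332 to 0.604) and 1.00 (0.934 to 1.07) per 10000 in epithelial cells, and at most 0.036 in the endothelial, mesenchymal and immune cells of either batch. Epithelial cells therefore stood above the others in both mice, and the log2 difference was 5.46 ± 0.38 (SE, n = 2 batches, adjusted p = 1.84e-06). Of Areg, epithelial cells held 25 of 26 UMIs in Batch 1 and 922 of 959 in Batch 2. These are levels of 0.246 (0.159 to 0.364) and 1.12 (1.05 to 1.19), against at most 0.074 in any other compartment. The log2 difference of Areg was 5.20 ± 0.30 (adjusted p = 4.15e-07).

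Egfr was at 0.325 (0.224 to 0.457) in epithelial cells of Batch 1 and at 0.315 (0.278 to 0.356) in Batch 2. In mesenchymal cells it was at 0.070 (0.036 to 0.122) and 0.110 (0.079 to 0.150), below epithelial cells in both batches and without overlap of the intervals. The log2 difference for epithelial cells was 3.26 ± 0.49 (adjusted p = 0.000676). Erbb2 was more even, with 39.6% and 70.1% of its UMIs in epithelial cells. It was at 0.207 (0.128 to 0.316) and 0.171 (0.144 to 0.201) in epithelial cells, at 0.090 and 0.081 in endothelial cells, and at 0.110 and 0.058 in mesenchymal cells. Epithelial cells were higher by 2.17 ± 0.37 on the log2 scale (adjusted p = 0.00103), and immune cells, with 1 UMI in each batch, were lower (-2.80 ± 0.74, adjusted p = 0.0154). The mean set against epithelial cells includes these immune cells, and the levels differed less from endothelial and mesenchymal cells.

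Hbegf gave no such order between compartments. It was at 0.542 and 0.647 in epithelial, 0.400 and 0.803 in mesenchymal, and 0.550 and 0.175 in endothelial cells of Batch 1 and Batch 2. The epithelial difference of 1.48 ± 0.49 did not pass the test (adjusted p = 0.0636), and it passed without the batch in the fit (adjusted p = 0.0374) and under 3 other settings. Of all genes tested, 20.6% were higher in epithelial cells, and 4 of the 5 members tested were among them. Among 13.9% of genes lower in endothelial cells were Areg, with 0 and 5 UMIs, and Erbb3, with 4 and 5 UMIs. The adjusted p-values were 0.000265 and 0.0293 with the batch as a block, and 0.0567 and 0.107 without it. Erbb2 was the sole member lower in immune cells, where 13.6% of all genes were lower. These 5 members had passed a filter on low counts, and Erbb4, Ereg, Nrg1 and Tgfa had not. A gene high in a single compartment can pass that filter through it, so calls of a higher level are not independent of the filter.

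**Figure D1:**
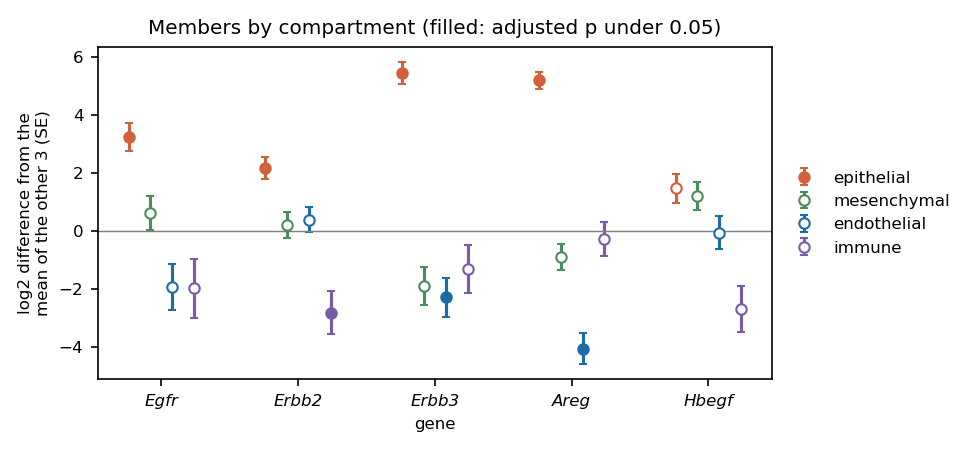
Log2 difference of each tested member in a compartment from the mean of the other 3 compartments (y axis, with SE, n = 2 batches), by gene (x axis), with filled points where the adjusted p was under 0.05. Erbb3 at 5.46 and Areg at 5.20 stood highest in epithelial cells, followed by Egfr at 3.26 and Erbb2 at 2.17, whereas Hbegf did not pass in any compartment.

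Within the epithelium, receptors and ligands were spread differently over the alveolar types. Erbb3 was at like levels in all 3 alveolar types, Egfr was highest in AT1 cells, and Areg was seen in AT2 and AT1/AT2 cells but at 1 UMI per batch in AT1 cells. Types with at least 10 cells in each batch (18 types, 36 sums) were each compared with the mean log2 level of the other types over 5675 genes, of which Erbb3, Areg and Hbegf were members. These members passed the filter on low counts through the types in which they were high. Calls of a higher level in those types are therefore not independent of the filter. Where many types are at 0, the fitted difference depends on the prior count of the fit, so levels come first. The SE then follows the fitted difference and is no standard error in the usual sense. For Areg in matrix fibroblasts it was 0.0049 at a difference of -0.0032, and for Erbb3 in aerocytes 6904 at -2.66.

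Egfr, the receptor of most of these ligands, had 18 UMIs in 102 AT1 cells of Batch 1, a level of 0.714 (0.423 to 1.13), and 68 UMIs in 308 AT1 cells of Batch 2, a level of 0.993 (0.771 to 1.26). AT1/AT2 cells were at 0.266 (0.097 to 0.578) and 0.516 (0.434 to 0.610), and AT2 cells at 0.186 (0.085 to 0.352) and 0.145 (0.107 to 0.193). The order AT1, AT1/AT2, AT2 was the same in both batches, and AT1 and AT2 did not overlap within a batch. All 4 AT1 clusters (0.823 to 1.37) were above all 6 AT2 clusters (0.0815 to 0.226). Detection in Batch 2 was 18.2% of AT1, 24.5% of AT1/AT2 and 5.75% of AT2 cells, at median depths of 1913, 5262 and 3697 UMIs per cell. Thinned to 600 UMIs per cell, it was 4.55%, 3.17% and 0.442%, in the order of the levels. Egfr was filtered from the type fit for its low counts. Without that filter, over 23420 genes, all 3 alveolar types were higher, AT1 by 4.60 ± 0.47 on the log2 scale (adjusted p = 1.25e-20), AT1/AT2 by 3.79 ± 0.49 (adjusted p = 3.05e-13) and AT2 by 2.39 ± 0.59 (adjusted p = 0.000692). In that fit the percentage of genes higher was 8.19 for AT1, 13.5 for AT1/AT2 and 14.7 for AT2. Its p-values are far smaller than those of the main fit for like differences. Erbb3 in AT1 cells was at 6.51 there (adjusted p = 2.05e-30) and at 6.52 in the main fit (adjusted p = 2.82e-11). Both fits pool their spread over types of the same 2 mice. Here and below, p-values of neither fit measure the spread between mice. General capillary cells, an endothelial type, showed Egfr in 0.641% and 0.517% of cells. Outside the epithelium Egfr was otherwise at 0.268 and 0.205 in pericytes and at 0.06 in matrix fibroblasts of both batches, and in myofibroblasts at 0 UMIs in Batch 1 and 15 in Batch 2.

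Erbb3 was seen at 10, 16 and 17 UMIs in AT1, AT1/AT2 and AT2 cells of Batch 1, which are levels of 0.397 (0.190 to 0.730), 0.708 (0.405 to 1.15) and 0.351 (0.204 to 0.561). In Batch 2 there were 85, 295 and 313 UMIs, at 1.24 (0.992 to 1.54), 1.10 (0.982 to 1.24) and 0.967 (0.863 to 1.08). The intervals of the types overlapped within each batch. All 3 types were above the mean of the other types, AT1 by 6.52 ± 0.61 (adjusted p = 2.82e-11), AT1/AT2 by 6.93 ± 0.57 (adjusted p = 8.92e-13) and AT2 by 6.54 ± 0.57 (adjusted p = 3.94e-12). Of all genes, 16.6% were higher for AT1, 21.1% for AT1/AT2 and 22.0% for AT2. With DESeq2 the SE of these differences was 5.43 to 5.44 and no call was made (adjusted p from 0.528 to 0.604). Between the highest type and the next, AT1/AT2 and AT1, the difference was 0.39 ± 0.54, and AT1 differed from AT2 by -0.03 ± 0.50 (adjusted p = 0.989). Detection in Batch 2 thinned to 600 UMIs was 5.84%, 7.92% and 5.90% for these types, against 22.1%, 41.2% and 29.4% before. General capillary cells showed Erbb3 in 0.641% and 0.345% of cells (median depths 1235 and 1954), and B lymphocytes (median depths 1298 and 1415) in 0 of 29 and 0 of 37. A count of 0 allows up to 10.3% and 8.11% of those cells to hold a UMI and does not limit how many express the gene.

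Erbb2, the shared partner receptor, had levels of 0.159 and 0.351 (AT1), 0.354 and 0.157 (AT1/AT2), and 0.124 and 0.124 (AT2). AT1 and AT1/AT2 cells swapped places between batches, so that no order could be read. Without the filter it was higher in AT1 (3.52 ± 0.67), AT1/AT2 (3.28 ± 0.64), AT2 (2.69 ± 0.66) and general capillary cells (1.87 ± 0.68, adjusted p = 0.0434). Capillary cells held it at 0.106 and 0.081. Myofibroblasts were at 0.454 (5 UMIs) in Batch 1, above the alveolar types of that batch, and at 0.053 (3 UMIs) in Batch 2, and smooth muscle cells held 3 UMIs (0.330) and 0. In the 57 cells of Batch 1 that the study lists as MyoFB-2, a myofibroblast type, Erbb2 was at 1.02 (7 UMIs). Its listed AT1, AT1/AT2 and AT2 cells were at 0.247, 0.266 and 0.132.

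**Figure D2:**
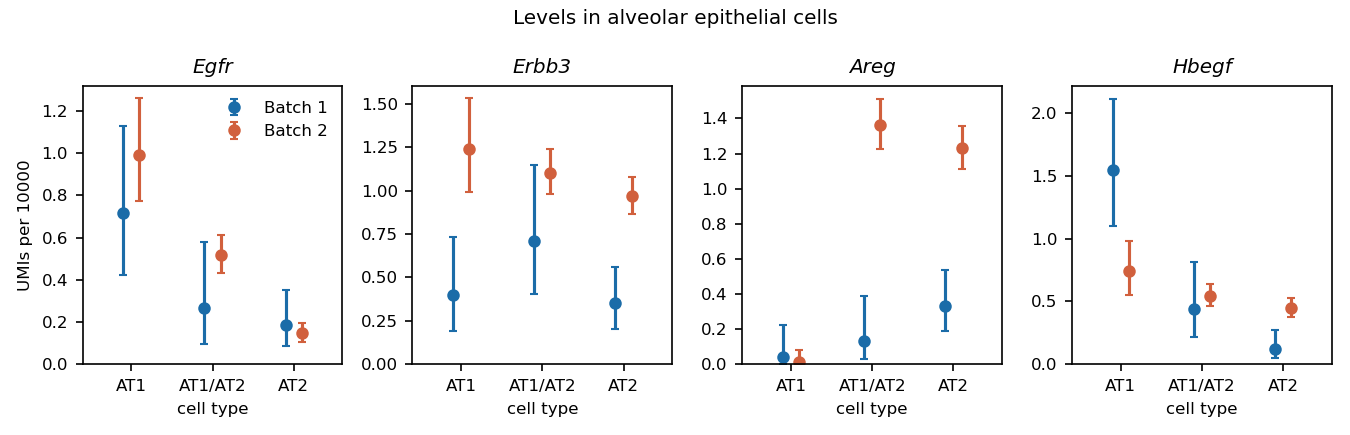
Levels of Egfr, Erbb3, Areg and Hbegf (y axis, UMIs per 10000, each panel with its own scale) in AT1, AT1/AT2 and AT2 cells (x axis) of Batch 1 and Batch 2, with exact 95% Poisson intervals. Egfr falls in order from AT1 to AT2 in both batches, Erbb3 is alike across the 3 types within a batch, and Areg is near 0 in AT1 cells (0.040 and 0.015).

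Amphiregulin (Areg) marked the other side of the alveolar epithelium. AT2 cells held 16 UMIs in Batch 1, a level of 0.330 (0.189 to 0.536), and 398 in Batch 2, a level of 1.23 (1.11 to 1.36). AT1/AT2 cells held 3 and 364 UMIs, at 0.133 (0.027 to 0.388) and 1.36 (1.23 to 1.51). AT1 cells held 1 UMI in each batch, at 0.040 (0.001 to 0.221) and 0.015 (0.000 to 0.081). AT1 cells were below AT2 cells in both batches, with intervals that overlapped in Batch 1 and not in Batch 2. Areg was above the mean of the other types by 6.27 ± 0.49 in AT2 (adjusted p = 4.88e-14) and 5.92 ± 0.50 in AT1/AT2 cells (adjusted p = 4.99e-13), and AT1 cells were at 0.23 ± 0.32 (adjusted p = 0.782). Ciliated cells, too few in Batch 1 for this fit, had higher Areg levels in both batches and are given below.

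The direct difference of AT1 from AT2 cells was -5.70 ± 0.90 on the log2 scale (adjusted p = 7.78e-06), in a comparison in which 8.14% of genes were lower in AT1. DESeq2 gave -4.93 with an adjusted p of 0.0858, and Batch 1 by itself gave -2.05. The AT1/AT2 cells exceeded AT1 cells by 5.37 ± 0.91 (adjusted p = 0.00010) and differed from AT2 cells by -0.33 ± 0.51. Detection of Areg in Batch 2 was 21.4% of AT2, 28.0% of AT1/AT2 and 0.325% of AT1 cells, and in 1161 general capillary cells 0.172%. Thinned to 600 UMIs per cell it was 4.28%, 8.18%, 0 and 0.

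By cluster, Areg ranged from 0.496 to 2.53 over the AT2 clusters and from 0.230 to 1.56 over the AT1/AT2 clusters, the lowest of each being the cluster that holds most of the Batch 1 cells. It was concentrated in few cells. In AT2 cells of Batch 2 the highest cell held 34 UMIs, and the 10 highest held 125 of 398 UMIs (31.4%). Without the 3 highest cells of each batch the level in AT2 cells was 0.192 and 1.04, and in AT1/AT2 cells 0 and 1.16. One cluster of 29 AT2 cells with Areg as its leading gene, although Areg had no part in the clustering, held 37 UMIs in just 3 cells. Myofibroblasts held 0 UMIs of it in Batch 1 and 17 in Batch 2 (0.30 per 10000, 2.6% of cells). Their fitted difference of 3.20 ± 0.79 (adjusted p = 0.00232, with 14.9% of genes higher in this type) turned to -0.27 without Batch 2 and was lost with DESeq2 (adjusted p = 0.490).

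HB-EGF (Hbegf) stood out in pericytes, the mural cells of capillaries. In 63 pericytes of Batch 1 there were 59 UMIs, a level of 7.90 (6.02 to 10.2), and in 152 pericytes of Batch 2 there were 231 UMIs, a level of 7.89 (6.90 to 8.97). The intervals of the batches overlapped, and 54.0% and 66.4% of pericytes had a UMI (34.9% and 37.5% at 600 UMIs per cell), against 0 of 29 and 0 of 37 B lymphocytes. The pericyte cluster was led by Higd1b, Cox4i2 and Gucy1a3. Among the 18 types of the fit the second was AT1, at 1.55 (1.10 to 2.12) and 0.745 (0.555 to 0.980), and pericytes exceeded it in both batches, by 2.71 ± 0.45 on the log2 scale. Types with too few Batch 1 cells for that fit were not ranked in it: in Batch 2, secretory airway cells (1.66), airway cells with secretory and ciliated markers (1.18) and vascular smooth muscle cells (0.99) were above AT1, and in the fit that took types with 4 cells per batch the difference was 4.33 ± 0.61 for secretory airway cells and 3.66 ± 0.51 for AT1. Against the mean of all other types the difference for pericytes was 6.93 ± 0.36 (adjusted p = 6.2e-19), where 12.0% of genes were higher. A cluster of 22 cells with pericyte and vascular smooth muscle markers, which got no name, held 30 UMIs in 9 cells (6.48). Named pericytes held 231 of the 292 mesenchymal UMIs of Hbegf in Batch 2 and 59 of 69 in Batch 1.

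The remaining Hbegf was spread over alveolar epithelium and capillaries. AT1 cells (4.06 ± 0.49, adjusted p = 1.09e-08), AT1/AT2 cells (3.25 ± 0.52, adjusted p = 2.73e-06) and AT2 cells (2.73 ± 0.54, adjusted p = 9.16e-05) were above the mean of the other types. So were general capillary cells (2.33 ± 0.57, adjusted p = 0.00147), in which 19.5% of genes were higher. Levels in AT1/AT2 cells were 0.443 and 0.546, in AT2 cells 0.124 and 0.445, and in capillary cells 0.634 and 0.179. Thus AT2 cells were higher in Batch 2 and capillary cells in Batch 1. AT1 exceeded AT2 cells by 1.25 ± 0.47, which did not pass the test (adjusted p = 0.0593). In Batch 1, 18 of the 39 Hbegf UMIs of AT1 cells lay in 20 cells that the study lists as mixtures of endothelial and epithelial cells. Without them 21 UMIs in 82 cells remained, a level of 1.30. In the 72 cells of Batch 1 that the study lists as AT1 there were 10 UMIs, a level of 0.617, below 0.691 in its 42 listed AT1/AT2 cells (13 UMIs), so the level of AT1 cells and its order against AT1/AT2 cells in Batch 1 depended on how cells were named. The 5 endothelial markers, none of them at 0, summed to 14.5 per 10000 in AT1 cells of Batch 1 and 1.43 in Batch 2, and their part in the Hbegf level was not tested beyond this.

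**Figure D3:**
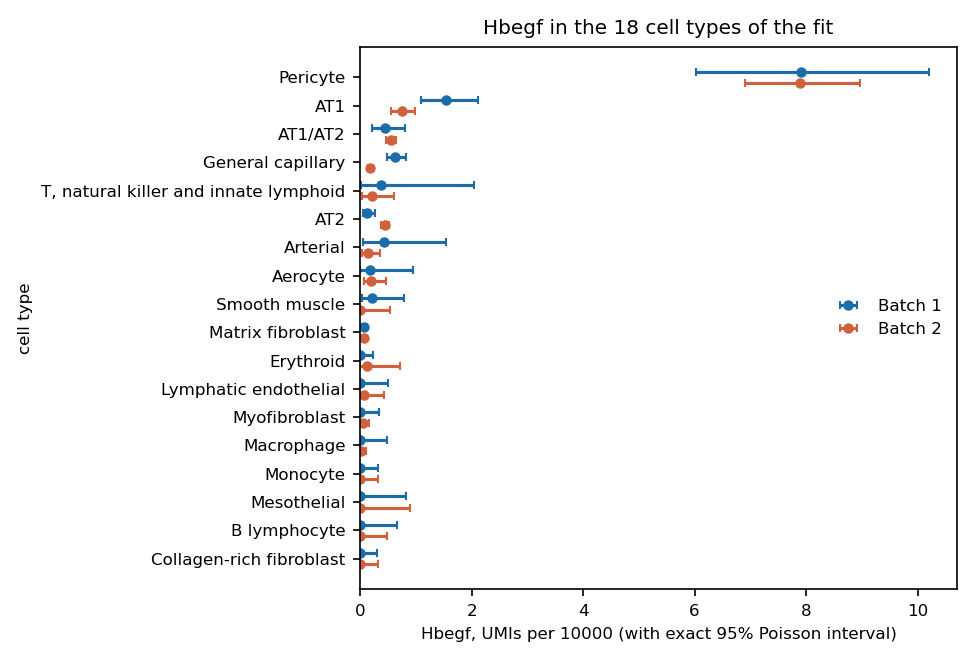
Hbegf level (x axis, UMIs per 10000, exact 95% Poisson intervals) in the 18 cell types of the fit (y axis) for Batch 1 and Batch 2. Pericytes lie at 7.90 and 7.89, apart from AT1 cells at 1.55 and 0.745 and from every other type drawn.

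Airway epithelium was sparse in Batch 1 and is given mainly from Batch 2. Ciliated cells, which clear mucus, held Areg at 5 UMIs in 7 cells of Batch 1 (1.66, 0.538 to 3.87) and at 44 UMIs in 32 cells of Batch 2 (2.19, 1.59 to 2.94). In secretory airway cells of Batch 2 there were 2 Areg UMIs in 32 cells (0.083), but 25 of Erbb3 (1.03, 0.670 to 1.53) and 40 of Hbegf (1.66, 1.18 to 2.25), whereas the 4 such cells of Batch 1 held 1 Erbb2 UMI and none of Areg, Erbb3 or Hbegf. A further 55 airway cells of Batch 2 with markers of both kinds, whose main cluster had a median of 24522 UMIs per cell, held 101 Erbb3, 113 Areg and 144 Hbegf UMIs (0.83, 0.93 and 1.18 per 10000). With types of at least 4 cells per batch added to the fit, a choice made after the data were seen, ciliated cells were higher for Areg (6.35 ± 0.58) and Erbb3 (4.28 ± 0.91), where 16.5% of genes were higher. In that fit the Areg difference was 5.82 ± 0.46 in AT2 and 5.56 ± 0.47 in AT1/AT2 cells, below that of ciliated cells. Secretory cells were higher for Erbb3 (5.75 ± 0.72) and Hbegf (4.33 ± 0.61), where 8.04% of genes were higher. Vascular smooth muscle cells, with 0 Hbegf UMIs in 9 cells and 14 in 62 cells (0.99), were higher for Hbegf (3.07 ± 0.82, adjusted p = 0.00942), where 6.57% of genes were higher.

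**Figure D4:**
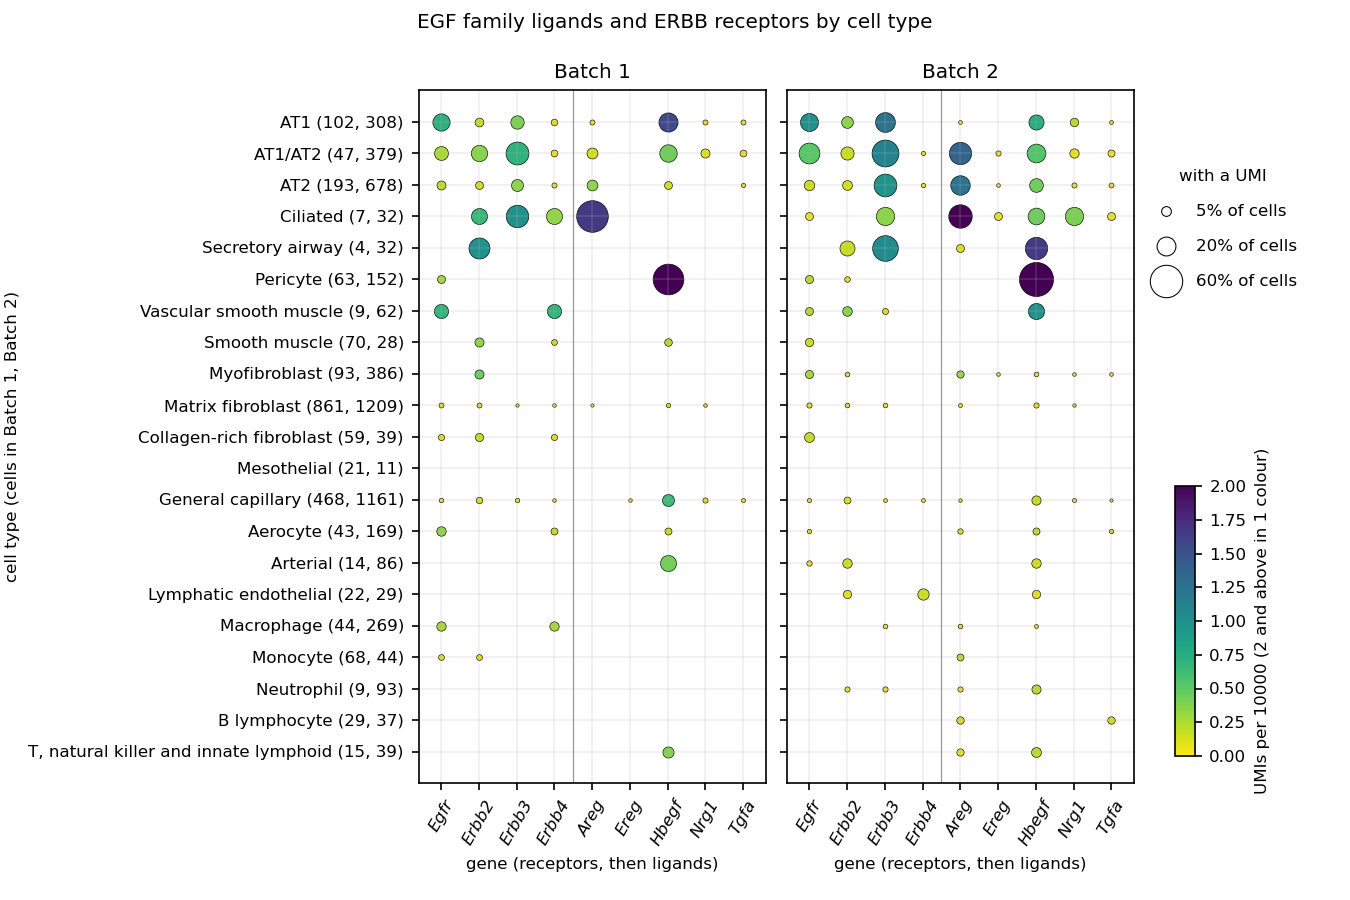
Members (x axis, receptors left of the line, ligands right of it) in cell types (y axis, with the number of cells in Batch 1 and Batch 2), one panel per batch, where the area of a dot grows with the share of cells with a UMI and its colour gives the level in UMIs per 10000. Erbb3 fills the alveolar rows in both batches, Areg stands in the rows of AT1/AT2, AT2 and ciliated cells, and Hbegf in the pericyte row. Rows with under 10 cells rest on few UMIs, such as 1 of Erbb2 in 4 secretory cells and 5 of Areg in 7 ciliated cells of Batch 1.

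The other 4 members were rare, and their counts limit what can be said. Erbb4 had 16 UMIs in Batch 1 and 14 in Batch 2, and no named type held more than 4 in a batch. Ereg had 1 and 15, of which AT1/AT2 cells held 0 and 6 and AT2 cells 0 and 4. Nrg1, the neuregulin that ERBB3 and ERBB4 bind, had 10 and 71 UMIs. In Batch 2 it was at 14 UMIs in AT1 cells (0.205, 3.57% of cells), 18 in AT1/AT2 cells (0.067) and 8 in ciliated cells (0.399, 18.8%), against 1, 2 and 0 UMIs in Batch 1. A small endothelial cluster led by Car8, Fbln2 and Vwf, which got no name, held 7 Nrg1 UMIs in 68 cells. Without the filter on low counts Nrg1 was higher in AT1 (4.81 ± 0.95, adjusted p = 1.06e-05) and AT1/AT2 cells (4.03 ± 0.95, adjusted p = 0.000293). These calls rest almost wholly on Batch 2, and the p-values of that fit do not measure the spread between mice. Tgfa had 5 and 23 UMIs, 9 of them in AT1/AT2 cells of Batch 2, where the difference from the other types was 2.99 ± 1.02 (adjusted p = 0.0278).

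Ligand and receptor were also seen in the same cells. In 379 AT1/AT2 cells of Batch 2, 34 held both Areg and Egfr, where the product of the shares gives 26.0 cells. For Areg and Erbb3 the count was 60 against 43.6, for Hbegf and Egfr 30 against 18.4, and for the receptors Egfr and Erbb3 53 against 38.3. Of 678 AT2 cells, 16 held Areg and Egfr against 8.34, and 54 held Areg and Erbb3 against 42.6. In 308 AT1 cells, 10 held Hbegf and Egfr against 7.09. Deep cells show more of every gene, so counts above the product are no measure of a link between genes, and in Batch 1 none of these pairs was seen in more than 3 cells of an alveolar type.

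Areg and Erbb3 differed between the 2 batches, each of 1 mouse. In the fit of 18 types Areg was higher in Batch 2 by 2.33 ± 0.47 on the log2 scale (adjusted p = 0.000201) and Erbb3 by 1.24 ± 0.40 (adjusted p = 0.0175), among 17.7% of genes that were higher in that batch. The p-values of this paragraph use types or compartments of the same 2 mice as replicates. As in the other fits, they do not measure the spread between mice. The Areg difference was not shared by all types, since AT1 cells were at 0.040 and 0.015 and AT2 cells at 0.330 and 1.23. Hbegf did not pass (-0.18 ± 0.27, adjusted p = 0.665). By compartment, where 6.22% of genes were higher in Batch 2, Areg differed by 2.48 ± 0.37 (adjusted p = 0.00281), Erbb3 by 1.04 ± 0.44 (adjusted p = 0.165), Egfr by -0.13 ± 0.49 and Erbb2 by -0.39 ± 0.34. With DESeq2 the type fit gave 1.05 for Areg (adjusted p = 0.334) and -0.29 for Erbb3. Mouse, library and depth cannot be told apart here.

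Genes of the response to dissociation moved with the batch as well. A list of 12 immediate early and stress genes, among them Fos, Jun and Atf3, summed to 3.65 and 41.1 UMIs per 10000 in AT2 cells of Batch 1 and Batch 2, to 5.44 and 39.0 in AT1/AT2 cells, to 11.5 and 21.7 in AT1 cells, to 4.96 and 33.6 in pericytes, and to 29.7 and 144 in myofibroblasts. Over the 36 sums, which share 2 libraries, this level ranged from 2.74 to 144 with a median of 21.0, and its Pearson r was 0.20 with Areg, -0.15 with Hbegf, -0.09 with Erbb3, 0.11 with Egfr and 0.01 with Erbb2. Hbegf in pericytes was at 7.90 and 7.89 in these batches. The part of this response in the Areg difference, or in the level of any other member, was not tested. An r over sums that mix types and batches cannot decide it.

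**Figure D5:**
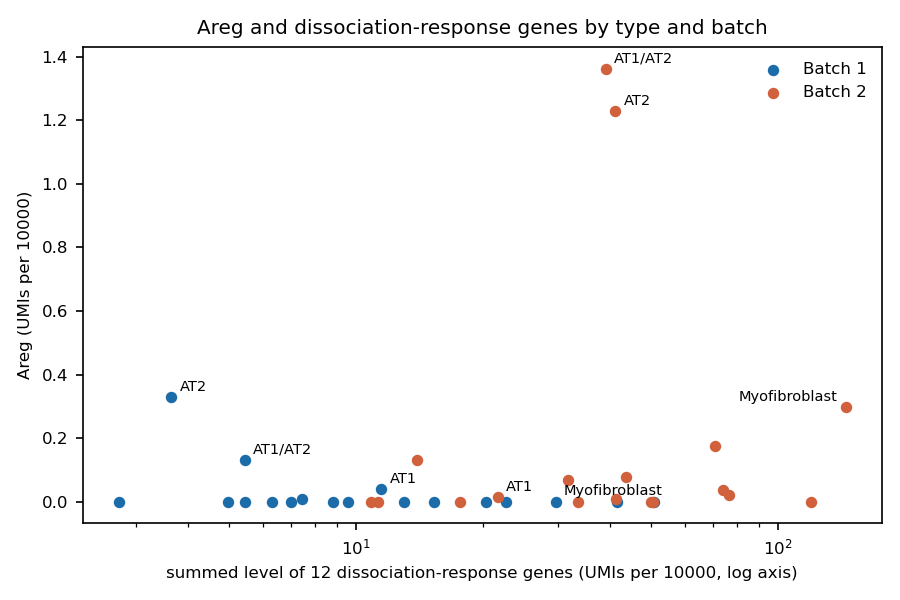
Areg level (y axis, UMIs per 10000) against the summed level of 12 dissociation-response genes (x axis, UMIs per 10000, log axis) for each of the 36 sums of a cell type in a batch. AT2 and AT1/AT2 cells of Batch 2 stand at 1.23 and 1.36 with sums of 41.1 and 39.0, and other sums drawn at or above that x value hold Areg at 0.30 or less. Airway cells, too few in Batch 1 for the fit, are not drawn. In Batch 2 the sum was 47.3 in those with secretory and ciliated markers and 36.2 in ciliated cells, and both held Areg at the levels given above.

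Genes that act around the receptors were taken from a list of 46, of which 38 were tested by compartment. In epithelial cells 13 of the 38 were higher (34.2%, against 20.6% of all genes) and 8 were lower (13.7% of all genes were), with a median log2 difference of 0.42 against -0.02 over all genes. The 3 with the largest differences were Etv5, a transcription factor induced by ERK signalling (4.77 ± 0.20, adjusted p = 4.45e-08), Errfi1, an inhibitor that binds EGFR (3.69 ± 0.63, adjusted p = 0.0148), and Dusp4, a phosphatase of MAP kinases (3.34 ± 0.61, adjusted p = 0.0015). Named after their values were seen, the feedback inhibitors Lrig1 (2.84 ± 0.44), Spry1 (2.69 ± 0.23) and Spry2 (2.17 ± 0.20) were higher in epithelial cells as well, whereas Spry4 was lower (-2.71 ± 0.47). The targets on the list went both ways, since Etv5, Dusp4 and Phlda1 (1.57 ± 0.44) were higher and the phosphatase genes Dusp5 (-1.74 ± 0.53) and Dusp6 (-1.74 ± 0.22) and Myc (-1.78 ± 0.50) were lower.

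Of the same list, 5 were higher and 8 lower in endothelial cells (15.6% and 13.9% of all genes), 5 and 6 in mesenchymal cells (16.7% and 13.3%), and 7 and 10 in immune cells (16.1% and 13.6%). In endothelial cells the cell cycle gene Ccnd1 was higher (2.98 ± 0.24), and Phlda1 (-3.39 ± 0.58) and Etv5 (-2.23 ± 0.30) were lower. In mesenchymal cells Phlda1 (3.09 ± 0.42) and Spry4 (1.63 ± 0.33) were higher and Ccnd1 lower (-1.83 ± 0.31). In immune cells the phosphatase gene Dusp5 (3.28 ± 0.43) and Myc (2.50 ± 0.45) were higher and the adaptor gene Gab1 lower (-2.02 ± 0.51). The ligand genes Egf, Btc, Epgn, Nrg2, Nrg3 and Nrg4 and the targets Etv4 and Fosl1 were counted too rarely to be tested.

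Over the 36 sums of cell types, the genes most like Erbb3 in log2 level were Irx1, Pkp2 and Cldn4 (Pearson r of 0.92 each). For Areg they were Kcnj15 (0.78), Lgi3 (0.77) and Tfcp2l1 (0.76), and for Hbegf Lipg (0.77), Edn3 (0.74) and Cadm1 (0.73). Between the members themselves r was 0.63 for Areg and Erbb3, 0.44 for Hbegf and Erbb3, and 0.18 for Areg and Hbegf. These values are descriptions, since the sums share libraries and depth.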

How the data were processed

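The authors aligned Drop-seq reads of 2 mouse lungs (1 per batch) to mm10 with Bowtie2 2.2.7 and deposited UMI counts per gene and cell without normalization, for cells with at least 500 genes. Here cells with at most 10% mitochondrial UMIs were kept, and cells were clustered with leidenalg 0.10.2 (2000 variable genes, 40 components, 10 neighbours, Leiden resolution 4) without the members and the pathway list. Clusters were named from marker lists. Scrublet, run in scanpy 1.11.5, called 13 cells (0.544%) and 118 cells (2.10%) doublets, which were kept and left out as an alternative. Of AT1 cells listed in the part of the study's annotation used here, all in Batch 1, 72.1% had the same name, and of AT2 cells 91.1% and of AT1/AT2 cells 75.0%. Of pericytes, 91.7% were listed as Pericyte-2.

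Counts were summed by compartment or type and batch and fitted with edgeR 4.0.16 in R 4.3.3 (quasi-likelihood, TMM, filterByExpr, prior count 0.125, calls at adjusted p under 0.05), with batch as a block because sums of a batch come from the same mouse. Deviations of sums in a batch correlated at 0.243 to 0.449 between compartments and 0.025 to 0.580 between types. On simulated data, the epithelial contrast of 11253 genes recovered 50 of 50 genes raised 4-fold and 14 of 50 raised 2-fold, and the AT2 contrast of 4011 genes recovered 45 and 33 of 50. Of genes lowered 4-fold and 2-fold, the first recovered 40 and 15 of 50 and the second 41 and 13. The simulation gave each gene 1 mean in all other groups and 1 fixed spread, so it does not cover genes at 0 in most types. Alternatives were DESeq2 1.42.0, no block, no TMM, no filter, other mitochondrial limits and clusterings, no doublets, and each batch by itself.

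Genes named are the members, the 3 most alike per tested member, and up to 3 pathway genes per compartment with the largest difference among those past the threshold with the same sign in both batches. Members and lists were chosen with earlier results of these data known. The contrast of AT1 with AT2 cells, the limit of 4 cells, and the values without listed mixtures or highest Areg cells were added after the data were seen. Intervals and zero limits (3 counts, exact binomial and Poisson at 95%) cover counting error only.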

Additional observations from a re-analysis of the deposited data

Results flagged for a closer look

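The 1940 cells of Batch 2 over the mitochondrial limit entered only the alternative fit by compartment without that limit, and 8 of the 9 members were counted in them above the level that 0 counts allow. In UMIs per 10000 of these cells, the receptors were at 0.243 (Egfr), 0.117 (Erbb2), 0.519 (Erbb3) and 0.00795 (Erbb4), and the ligands at 0.59 (Areg), 0.573 (Hbegf), 0.0378 (Nrg1) and 0.0119 (Tgfa). The 704 of them whose nearest kept cells were epithelial held Erbb3 at 1.03 and Areg at 1.17.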

How the results depend on the processing

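With 1 mouse per batch, the values rest on 2 sums per group, and outside Hbegf in pericytes no member exceeded 2.19 UMIs per 10000 in a named type. Of 285 values under an alternative other than leaving out a batch, over 43 results, 244 counted as kept. For the 166 differences of members among them this meant the same direction and side of the threshold, whatever the size. For numbers of genes, shares of cells and levels it meant a like size. The number of genes higher moved without the filter on low counts, to 1918 in AT1, 3448 in AT2, 3157 in AT1/AT2 and 1065 in pericytes.

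Hbegf in epithelial cells passed with no replicate block (1.45), with DESeq2 (1.43), without the filter (1.52) and at a mitochondrial limit of 5% (1.66), and with the main settings it did not. The pairing by batch changed 2 further calls, Areg and Erbb3 lower in endothelial cells (-3.81 and -2.14 without the block), and no other call of a member. With DESeq2 calls were lost for Erbb3 in AT1/AT2 cells (4.91), Areg in AT1 against AT2 cells (-4.93) and Areg between batches (1.05), and Erbb3 between batches turned (-0.29). Erbb3 between batches was also lost at a limit of 5% (1.03). The cause was not tested.

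Leaving out a batch gave, in epithelial cells, 3.81 to 4.84 for Areg, 2.15 to 4.00 for Egfr, 1.50 to 2.25 for Erbb2 and 4.16 to 5.38 for Erbb3. By type it gave 3.02 to 4.62 for Erbb3 in AT1/AT2, 2.45 to 4.65 for Areg in AT2, 5.14 to 6.05 for Hbegf in pericytes, -5.27 to -2.05 for Areg in AT1 against AT2, and -0.27 to 2.00 for Areg in myofibroblasts. With 1 batch these are differences of log2 CPM at a prior count of 2, which shrinks low genes.

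Shares of cells over both batches depended on the rule. At 2 or more UMIs and after thinning to 600 UMIs, Egfr was seen in 2.93% and 4.15% of AT1 cells (17.8% otherwise), Erbb2 in 1.41% and 0.939% of AT1/AT2 cells (10.1%), Erbb3 in 16.7% and 8.45% of AT1/AT2 cells (39.9%), Areg in 8.96% and 3.79% of AT2 cells (18.0%), and Hbegf in 34.9% and 36.7% of pericytes (62.8%). In Batch 1 cells with the study's listed types, Erbb3 was at 0.532 per 10000 and 23.8% of AT1/AT2 cells, and Areg at 0.264 and 5.70% of AT2 cells. Hbegf was at 7.98 and 47.7% of the 44 cells listed as Pericyte-2, the listed type set beside pericytes. The 9 cells listed as Pericyte-1 held no Hbegf UMI. Hbegf in pericytes was at 7.22 at a limit of 5% and 8.06 without doublets. Over single batches, levels spanned 0.714 to 0.993 (Egfr, AT1), 0.157 to 0.354 (Erbb2, AT1/AT2), 0.708 to 1.10 (Erbb3, AT1/AT2), 0.330 to 1.23 (Areg, AT2) and 7.89 to 7.90 (Hbegf, pericytes). The shares spanned 16.7% to 18.2%, 9.50% to 14.9%, 29.8% to 41.2%, 6.22% to 21.4% and 54.0% to 66.4% in the same order.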
